A study of Mus musculus with 4 samples.

Results

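The cytosolic ribosomal protein genes were examined by single-nucleus RNA sequencing of E16.5 mouse medial cortex. The group was chosen with earlier results of these data known. Its members were set by name, as the genes named Rpl or Rps with a number, together with *Rplp0*, *Rplp1*, *Rplp2* and *Rpsa*. Pseudogenes whose symbol carries a -ps ending and the *Rps6k* kinases were left out. The rule gave 89 genes of 56884 in the gene table, 53 named for the large subunit and 36 for the small subunit.

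The study compared 2 genotypes, with 2 libraries each. Controls were *Sst-Cre/tdTomato*, with Cre and a fluorescent reporter alone. The Dnmt1 KO embryos held *Sst-Cre*, tdTomato and loxP-flanked *Dnmt1* alleles (*Sst-Cre/tdTomato/Dnmt1 loxP2*), so both groups share the Cre and the reporter. Cre is driven from the *Sst* locus, so the deletion is limited to cells that have expressed somatostatin, and most nuclei of a Dnmt1 KO library come from cells in which *Dnmt1* was not deleted by design. Control 2 was prepared in batch 2 with 2 sublibraries, whereas the other libraries belong to batch 1 with 8 sublibraries each.

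Ribosomes consist of a large and a small subunit, each built from ribosomal RNA and a set of proteins. The mRNAs of nearly all these proteins begin with a C followed by a run of pyrimidines, the 5′ terminal oligopyrimidine (TOP) motif, through which mTOR and the RNA-binding protein LARP1 adjust their translation. The mRNAs are short and abundant in the cytoplasm, and nuclear RNA holds only a small part of them. In the developing cortex, dividing radial glia, the neural stem cells, are known for a high demand for new ribosomes.

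The letters around the annotated starts of 8 of these genes are given first, since the TOP motif is the sequence feature that the group is known for. Each stretch holds 40 bases before and 20 bases from the start of the canonical GENCODE transcript on GRCm39, read 5′ to 3′ along the gene. Capitals mark a C followed by pyrimidines, either exactly at the start (at least 5 letters) or beginning within 10 bases of it (at least 7 letters). *Rps2*, *Rpl22* and *Rps27l* carry such a tract at the annotated start. Where a tract lies exactly at the start, only that one is marked. *Rps27l* also holds an unmarked tract of at least 7 letters a few bases downstream. *Rpsa*, *Rpl5* and *Rpl10* carry it a few bases downstream. *Rpl4* and *Rpl36a* hold none in this window and are shown because *Rpl4* had the highest level and *Rpl36a* the largest difference between cell classes.
Rps2 (chr17:24939042-24939101, plus strand): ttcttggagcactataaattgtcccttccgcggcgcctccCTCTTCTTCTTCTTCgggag
Rpl22 (chr4:152410110-152410169, plus strand): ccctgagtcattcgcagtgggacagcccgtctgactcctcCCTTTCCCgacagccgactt
Rps27l (chr9:66853300-66853359, plus strand): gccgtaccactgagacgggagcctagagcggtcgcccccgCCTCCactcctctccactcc
Rpsa (chr9:119956715-119956774, plus strand): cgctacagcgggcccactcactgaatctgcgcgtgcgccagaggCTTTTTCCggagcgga
Rpl5 (chr5:108048327-108048386, plus strand): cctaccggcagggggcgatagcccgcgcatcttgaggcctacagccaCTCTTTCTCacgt
Rpl10 (chrX:73314416-73314475, plus strand): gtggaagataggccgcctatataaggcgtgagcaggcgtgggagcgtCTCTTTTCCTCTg
Rpl4 (chr9:64080578-64080637, plus strand): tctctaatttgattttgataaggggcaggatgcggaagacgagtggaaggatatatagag
Rpl36a (chrX:133486363-133486422, plus strand): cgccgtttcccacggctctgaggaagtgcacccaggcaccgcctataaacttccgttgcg

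A tract exactly at the annotated start was found in 7 of 84 members annotated as protein-coding (8.33%) and in 3.62% of 21770 protein-coding starts. A tract beginning within 10 bases was found in 18 of 84 members (21.4%) and in 12.8% of all starts. Annotated starts can lie upstream of the start a cell uses, so an absent tract says only that these letters are not in this window. In the 300 bases from 250 before to 50 after the start, CCGGAAG, the core of an ETS family site, was found on either strand in 26 of 84 members (31.0%) and in 10.3% of all protein-coding starts. GATGGC, part of the site read by YY1, was found in 18 of 84 members (21.4%) and in 12.8% of all starts. Both motifs can overlap by 1 base, and a match is a description of the letters only.

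All 89 members were matched by identifier to GENCODE vM39. They lie on 19 chromosomes, and *Rpl10*, *Rpl36a*, *Rpl39* and *Rps4x* are the 4 members on the X chromosome. A small nucleolar RNA lies inside 30 members. Another gene that is no small RNA overlaps 57 members, on the opposite strand for 54 of them. Whether strand was used in counting was not given in the sources used here, so reads of such pairs cannot be told apart. Examples among the genes described below are *Rpl36a* with *Gla*, *Rpl3* with *Syngr1*, *Rpl12* with *Lrsam1*, *Rps18* with *Vps52*, *Rpl23a* with *Tlcd1* and *Rpl10* with *Dnase1l1*, and the list is not complete.

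The 4 libraries held 5640 and 12064 retained nuclei for Dnmt1 KO 1 and 2 and 7047 and 4905 for control 1 and 2. Their median depth was 12274 to 12401 transcripts per nucleus in batch 1 and 21140 in control 2. *Dnmt1* itself was counted at 61.8 and 47.5 CPM (transcripts scaled to equal library totals) in the Dnmt1 KO libraries 1 and 2, against 59.6 and 56.0 CPM in the controls. In nuclei with at least 1 transcript of both *Sst* and *Gad2*, it was counted at 76.1, 46.1, 81.2 and 66.5 CPM in the same order. The allele removes exons 4 and 5 and the files count whole genes, so the level of *Dnmt1* does not check the genotype. Cell classes were assigned from the number of detected markers among 8 per class. The nuclei gated as radial glia held 73.4 to 132 CPM of *Ednrb*, a gene not used for gating, against at most 12.8 CPM in the upper-layer, deep-layer and inhibitory gates. A second such gene, *Ptprz1*, separated the gates less, with 1554 CPM in the radial glia and 1203 CPM in the deep layer of Dnmt1 KO 1, and 2349 to 3010 CPM against 1114 to 1281 CPM in the other libraries. *Dlx6os1* reached 1567 to 2995 CPM in the inhibitory gate and at most 136 CPM in the others. Control 1 stood apart, with 136 and 129 CPM in its upper-layer and deep-layer gates, against at most 59.6 CPM in those of the other libraries. *Gad2*, a gating gene, had 77.5 CPM in excitatory nuclei of control 1 and 13.1 to 25.7 CPM in those of the others. The part of this in comparisons of inhibitory with excitatory nuclei was not tested. *Hs3st4* had 2934 to 4632 CPM in the deep-layer gate and at most 198 CPM in the others. For the upper layer, *Ptprk* had 1231 to 1521 CPM against 337 to 518 CPM in the deep layer, but *Pou3f3*, at 112 to 204 CPM, was higher in radial glia (158 to 240 CPM) than in the upper-layer gate in every library. The IPC (intermediate progenitor) gate held 17 to 44 nuclei per library, and its check genes differed. *Elavl2* had 2169 to 2434 CPM in it and at most 879 CPM in the other gates, whereas *Neurod1* was higher in it than in the upper-layer gate in Dnmt1 KO 2 only.

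Ribosomal protein transcripts were a small part of the nuclear RNA. Of the 89 members, 84 had at least 1 transcript in the retained nuclei, with 268897 transcripts in all. *Rpl10l*, *Rpl39l*, *Rpl32l*, *Rps3a3* and *Rps12l1* had none in these nuclei. *Rpl3l* had 19, *Rps3a2* 2 and *Rpl6l* 1. The remaining 81 passed the filter on low counts, 48 of the large and 33 of the small subunit. A nucleus held on average 7.90 and 7.81 member transcripts in Dnmt1 KO 1 and 2, 8.06 in control 1 and 14.9 in control 2.

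The summed share of the members in all transcripts was 0.0591% in Dnmt1 KO 1, 0.0545% in Dnmt1 KO 2, 0.0566% in control 1 and 0.0650% in control 2. Among the retained nuclei, control 2 was the highest library, and the other control lay between the Dnmt1 KO libraries. Over all barcodes, the shares were 0.0548%, 0.0535%, 0.0568% and 0.0662% in the same order of libraries. There, both controls lay above both Dnmt1 KO libraries. Barcodes above the upper limit for a nucleus held 1.35%, 4.37%, 19.2% and 29.4% of the transcripts of these libraries. The member share in such barcodes was 0.0632%, 0.0639%, 0.0734% and 0.0656%. The part of this limit in the order was not tested. The make-up of the libraries differed, with 11.2% of nuclei gated as radial glia in Dnmt1 KO 1 and 5.29% to 6.30% in the others, and with 188 meningeal and 96 choroid plexus nuclei in Dnmt1 KO 2 against at most 4 and 1 elsewhere. Its part in these shares was not tested, and shares within classes are given below. In the retained nuclei, the Dnmt1 KO libraries averaged 0.0568% ± 0.00326 and the controls 0.0608% ± 0.00594 (SD, n = 2 each).

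**Figure D1:**
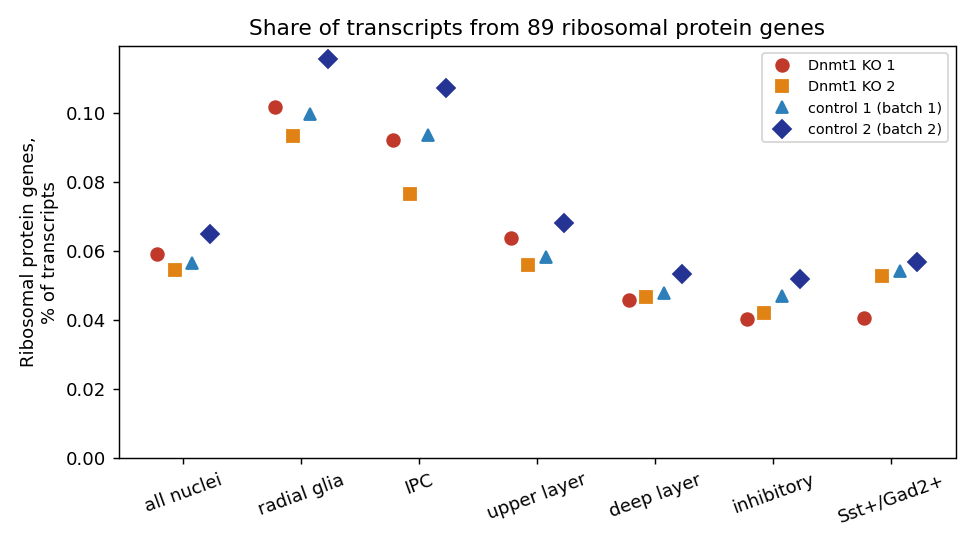
Share of transcripts from the 89 ribosomal protein genes (% of all transcripts, y axis) in all retained nuclei and in 6 marker-gated classes (x axis), with 1 point per library. Radial glia lie at 0.0932% to 0.116%, above the other classes shown in every library, and control 2 (batch 2) is the highest library in every class shown.

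The signal was spread over many members, with *Rpl4* as the highest. *Rpl4*, which lines the exit tunnel for the nascent chain, was counted at 29.3, 29.2, 30.3 and 30.7 CPM in Dnmt1 KO 1, Dnmt1 KO 2, control 1 and control 2. Its 4 values differ little, and every one lies above every value of the next member. *Rpl13a*, a large-subunit protein, had 22.2, 18.1, 18.4 and 20.5 CPM in the same order of libraries. *Rps15a*, a small-subunit protein, had 17.5, 14.9, 18.8 and 20.03 CPM, so its range overlaps that of *Rpl13a*. *Rpl5*, which binds the 5S ribosomal RNA, followed at 13.9 to 17.4 CPM. *Rpl7l1* (mean 13.9 CPM), *Rpl22* (13.9), *Rps3* (13.1), *Rpl3* (13.0), *Rps24* (11.9) and *Rps18* (11.9) complete the 10 highest. Apart from *Rpl4*, the ranges of neighbours among them overlap. These 10 members held 27.1% of the member transcripts. In all, 15 members had a mean above 10 CPM, 65 had 1 to 10 CPM and 4 with a transcript lay under 1 CPM. The median of the 81 members was 6.36 CPM.

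**Figure D2:**
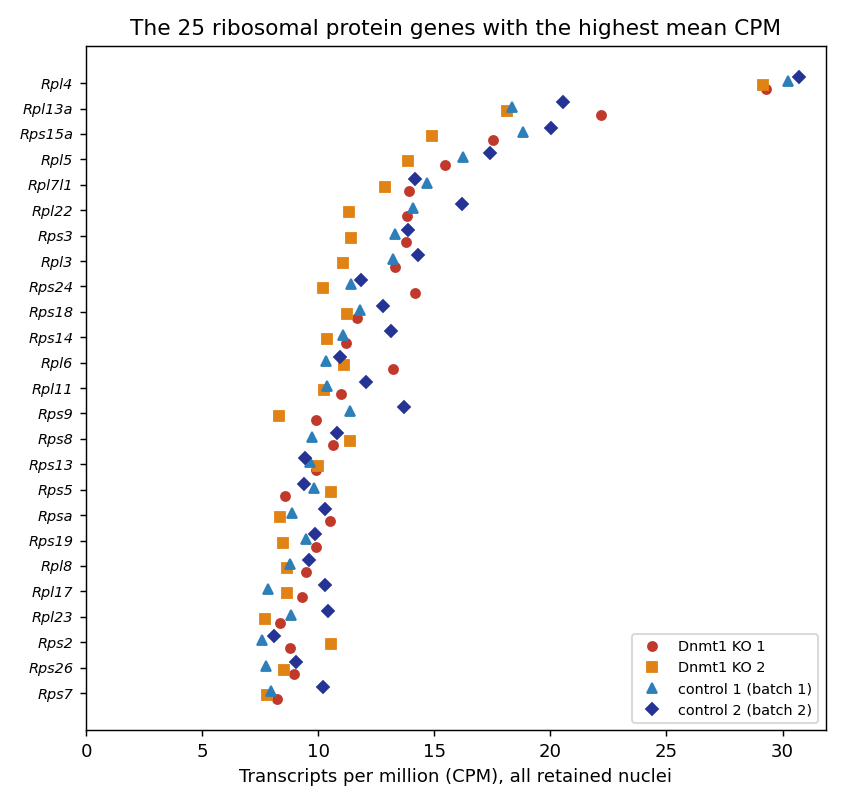
Level (CPM) in all retained nuclei (x axis) for the 25 ribosomal protein genes with the highest mean (y axis), with 1 point per library. *Rpl4* stands apart at 29.2 to 30.7 CPM in the 4 libraries.

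Levels of different genes can be compared only per length. Nuclear RNA holds unspliced transcripts, and whether intronic reads were counted was not given in the sources used here, so both lengths are shown. Both are annotated lengths, and some lie far above the medians of 1.10 kb (mature) and 4.09 kb (span). *Rps15a* has 5.18 kb of mature transcript and *Rps20* a span of 43.5 kb. Whether the cells use these lengths was not tested, so the orders per kilobase and the correlations with length depend on the annotation. Per kilobase of mature transcript, *Rpl22* (21.9 CPM per kb), *Rps18* (21.2), *Rpl13a* (18.9) and *Rps14* (18.8) were the highest, and *Rpl4* had 15.1. Per kilobase of gene span, *Rpl13a* (6.03 CPM per kb) and *Rpl4* (5.21) led. Across the 81 members, the mean CPM had a Spearman correlation of 0.51 with gene span and 0.33 with mature length. These points share their libraries and are genes, not replicates. The order of the members was similar in the libraries, with a Spearman correlation of member CPM from 0.91 (Dnmt1 KO 2 with control 2) to 0.98 (Dnmt1 KO 1 with control 1).

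The stalk proteins, which recruit elongation factors to the large subunit, differed in level. *Rplp2* had 7.10 to 8.35 CPM, *Rplp0* 5.44 to 6.43 CPM and *Rplp1* 1.67 to 2.73 CPM over the libraries. On the mature length, the means were 7.71 CPM per kb for *Rplp2*, 4.41 for *Rplp0* and 4.22 for *Rplp1*. On the gene span the order changed, with 1.75 for *Rplp1*, 1.09 for *Rplp2* and 0.827 for *Rplp0*. *Rpsa*, a small-subunit protein also known as the laminin receptor precursor, had 8.36 to 10.51 CPM.

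In CPM, *Rpl7l1* lay above its parent gene and the other paralogues and retrocopies below theirs. *Rpl7l1*, a relative of *Rpl7*, had 13.9, 12.9, 14.7 and 14.2 CPM in Dnmt1 KO 1 and 2 and control 1 and 2, against 5.57, 5.39, 6.09 and 6.04 CPM of *Rpl7*. On the mature length, its mean was 10.4 CPM per kb against 4.96 for *Rpl7*, on the gene span 1.58 against 1.05, and the values did not overlap between these genes in CPM. *Rpl22l1* had 2.94 to 3.96 CPM against 11.3 to 16.2 CPM of *Rpl22*. The order of this pair depended on the length, with means of 6.15 against 21.9 CPM per kb of mature transcript and 1.73 against 1.65 per kb of gene span. *Rps27l* had 0.984 to 1.38 CPM against 2.16 to 3.16 CPM of *Rps27*. *Rps4l*, an intronless copy, had 0.571 to 0.878 CPM against 6.73 to 8.52 CPM of *Rps4x*. *Rpl3l* had 0.0398 to 0.0443 CPM against 11.1 to 14.3 CPM of *Rpl3*. *Rpl10l*, *Rpl39l* and *Rps3a3* had no transcript beside their parents *Rpl10*, *Rpl39* and *Rps3a1*, and *Rps3a2* had 2. Reads shared with near-identical copies make each of these values uncertain. The pseudogenes with a -ps ending summed to 0.000748% to 0.000895% of transcripts.

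The share of the members differed between radial glia and excitatory nuclei by more than it did between libraries. In radial glia it was 0.102%, 0.0932%, 0.0995% and 0.116% in Dnmt1 KO 1, Dnmt1 KO 2, control 1 and control 2. In excitatory nuclei (the upper-layer and deep-layer gates with nuclei tied between them) it was 0.0521%, 0.0511%, 0.0532% and 0.0611%. In inhibitory nuclei it was 0.0404%, 0.0420%, 0.0469% and 0.0520%. Radial glia and excitatory nuclei did not overlap over the 4 libraries. Inhibitory and excitatory nuclei did, as inhibitory nuclei of control 2 (0.0520%) lay above excitatory nuclei of Dnmt1 KO 2 (0.0511%). Within a library, the share in radial glia was 1.95, 1.82, 1.87 and 1.89 times that in excitatory nuclei (mean 1.88 ± 0.0517 SD, n = 4), and the share in inhibitory nuclei was 0.775, 0.823, 0.881 and 0.851 times (mean 0.833 ± 0.0452 SD). After each nucleus was thinned to 1500 transcripts, the ratio for radial glia was 1.96 ± 0.0605 (SD, n = 4) and that for inhibitory nuclei 0.758 ± 0.0802. Upper-layer nuclei lay above deep-layer nuclei in each library, by 1.39, 1.20, 1.21 and 1.28 times.

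The IPC gate had 0.0921%, 0.0766%, 0.0936% and 0.107%, which is 1.70 ± 0.131 (SD, n = 4) times the excitatory share, on 162 to 592 member transcripts per library. The 95% Wilson interval of its lowest value was 0.0658% to 0.0892% and of its highest 0.0990% to 0.116%, and such intervals cover counting error only. Among the other gated classes, endothelial nuclei had 0.0717% to 0.0791% and Cajal-Retzius nuclei 0.0486% to 0.0600%, on 38 to 232 and 45 to 148 nuclei per library. Microglia had 0.101%, 0.0838%, 0.0948% and 0.115% in the same order of libraries, below radial glia in each library but close to them, on only 5 to 47 nuclei.

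Gene by gene, the members were higher in radial glia than in excitatory nuclei. With edgeR's quasi-likelihood test, the library as a block and Benjamini-Hochberg adjustment over 17324 genes, 64 of 81 members were higher and 0 lower at an adjusted p under 0.05, while 33.5% of all tested genes were higher and 32.7% lower. By subunit, 39 of 48 large-subunit and 25 of 33 small-subunit members were higher. The median log2 fold change was 0.50 over the 81 members and 0.00 over all genes. Without regard to the threshold, 79 of 81 log2 fold changes lay above 0, against 50.1% of all genes (49.9% below), and 66 higher and 0 lower passed an unadjusted p under 0.05, against 35.1% and 34.3%. In CPM, 79 of the 81 members were higher in radial glia in 4 of 4 libraries. The scaling matters here. With library totals in place of TMM, the median of all genes itself moved to 0.41, that of the members was 0.91, and 79 of 81 members were higher, against 52.2% of all genes higher and 20.2% lower.

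*Rpl36a*, which lies near the exit site for tRNA, showed the largest difference. It had 7.97, 8.19, 8.27 and 11.5 CPM in the radial glia of Dnmt1 KO 1 and 2 and control 1 and 2, against 2.82, 2.97, 3.14 and 3.77 CPM in excitatory nuclei. The classes do not overlap, and its log2 fold change reached 1.09 ± 0.12 (SE, with an edgeR adjusted p of 8.05e-05). *Rpl3*, which reaches towards the peptidyl transferase centre, had 28.7, 21.9, 33.3 and 31.9 CPM in radial glia against 10.8, 9.92, 11.7 and 12.8 CPM (log2 fold change 0.93 ± 0.09; edgeR adjusted p = 3.34e-05). *Rpl12*, at the base of the stalk, had 15.5, 11.8, 13.9 and 14.8 CPM against 5.59, 5.04, 5.72 and 6.12 CPM (0.91 ± 0.10). *Rpsa* had 19.7, 18.7, 18.8 and 21.8 CPM against 8.67, 7.495, 8.28 and 9.38 CPM (0.82 ± 0.08). Each of these genes was higher in radial glia in every library, by more than the spread between libraries.

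*Rpl4*, the member with the highest level, lay below the median of the members in this comparison. It had 48.3, 48.3, 47.4 and 49.9 CPM in radial glia against 26.2, 28.1, 28.6 and 29.8 CPM in excitatory nuclei, a log2 fold change of 0.38 ± 0.06 relative to the other genes (edgeR adjusted p = 0.000886). *Rpl13a* had 0.61 ± 0.07, *Rps15a* 0.50 ± 0.09, *Rps18* 0.69 ± 0.08 and *Rps24* 0.78 ± 0.08 on the log2 scale, all past the threshold. Of the stalk genes, *Rplp0* rose by 0.66 ± 0.11, *Rplp1* by 0.53 ± 0.18 and *Rplp2* by 0.50 ± 0.11. All of the stalk genes passed the test, although *Rplp1* is the least counted of them. The 17 tested members with a tract of at least 7 letters beginning within 10 bases of the annotated start had a median of 0.54, and the 64 others 0.50.

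A total of 17 members did not pass. *Rps4l* had a log2 fold change of -0.69 ± 0.46 on 0.207 to 1.06 CPM in radial glia, and its class ranges overlap. *Rps27* had -0.14 ± 0.17, with 2.38 to 4.05 CPM in radial glia and 1.90 to 3.04 CPM in excitatory nuclei. The other 15, among them *Rpl11*, *Rpl15*, *Rpl7a* and *Rps14*, had positive values from 0.12 upwards. The paralogue *Rps27l* passed at 0.73 ± 0.22 and *Rpl22l1* at 0.73 ± 0.14, with *Rpl22* at 0.41 ± 0.09. The difference between a paralogue and its parent was not tested.

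**Figure D3:**
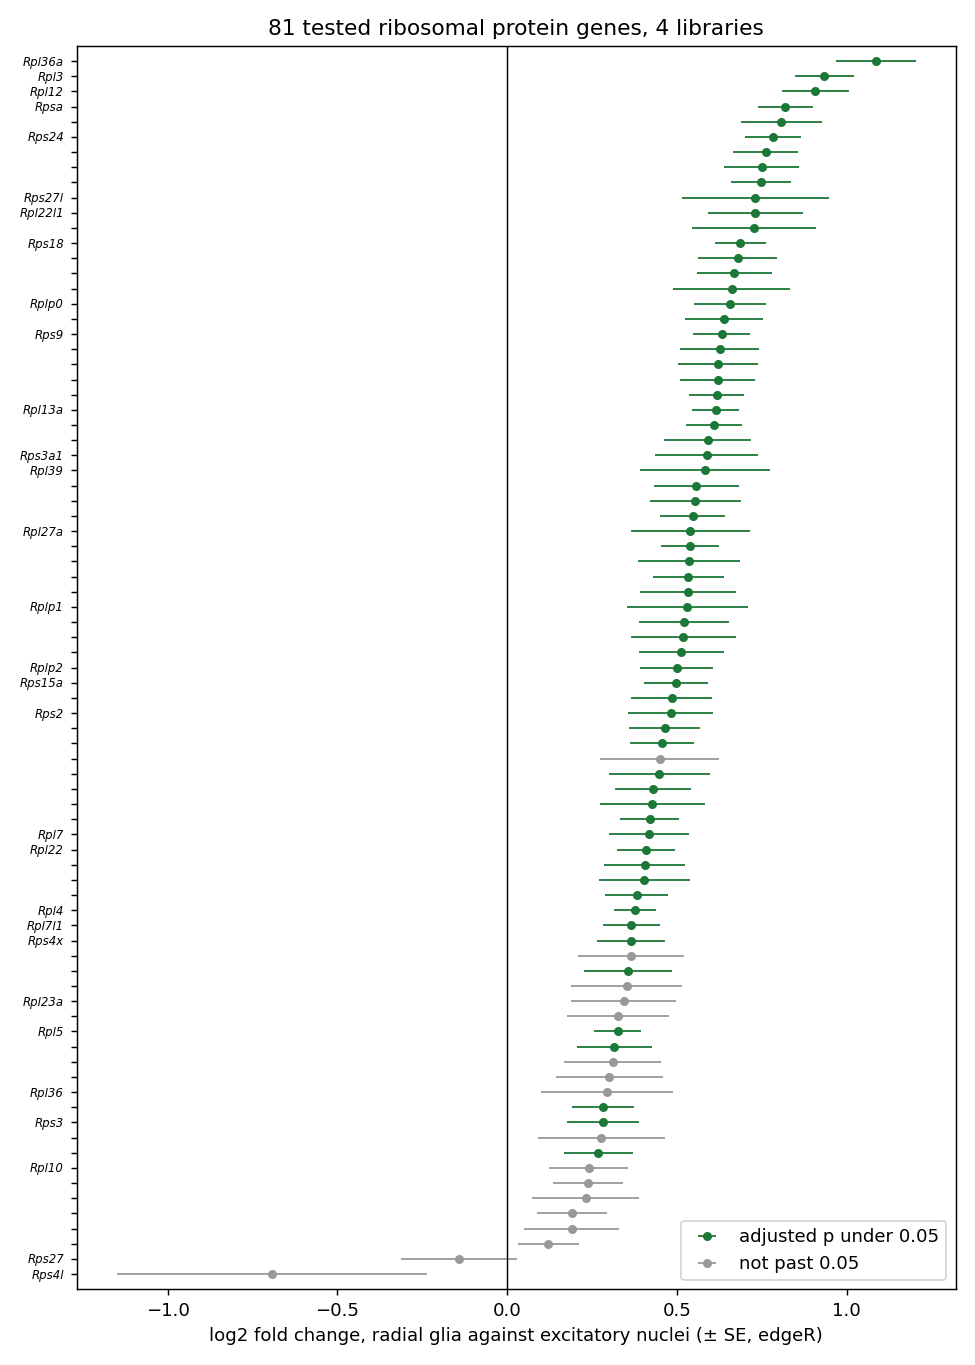
Log2 fold change of radial glia against excitatory nuclei (x axis, edgeR with the library as block, error bars ± SE) for each of the 81 tested members (y axis, in order of the value, with names for the genes described singly), with green points for an adjusted p under 0.05. Values run from -0.69 (*Rps4l*) to 1.09 (*Rpl36a*), and 79 of 81 lie above 0.

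Lists of other translation genes and of mitochondrial proteins also had a median log2 fold change above 0 in radial glia. Of 22 translation factors and linked TOP mRNAs, 17 were higher in radial glia and 0 lower (median log2 fold change 0.29). Of 30 ribosome biogenesis genes, 20 were higher and 1 lower (0.42). Of 8 tested snoRNA host genes, 6 were higher (0.47), and of 13 regulators of TOP mRNA translation such as *Mtor* and *Larp1*, 7 were higher and 3 lower (0.17). Mitochondrial ribosomal proteins had 29 of 78 higher and 4 lower (0.21), and the nuclear-encoded respiratory chain 17 of 76 higher and 5 lower (0.12). These counts stand beside the 33.5% and 32.7% of all genes given above. The share called higher was near that of all genes for mitochondrial ribosomal proteins and below it for the respiratory chain. The lists were given no test of their own.

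Values that move with this class difference are given beside it. Long nuclear RNAs such as *Malat1* made up 1.03% to 1.37% of transcripts in radial glia and 1.25% to 1.65% in excitatory nuclei, and 5 of 6 were lower in radial glia. Of 9 mitochondrially encoded genes, whose transcripts come from outside the nucleus, 0 were higher and 2 lower with TMM (median log2 fold change -0.29). Their summed share was 0.0114%, 0.0147%, 0.0324% and 0.0183% in radial glia of Dnmt1 KO 1 and 2 and control 1 and 2. In excitatory nuclei it was 0.0123%, 0.0138%, 0.0264% and 0.0178%, so by share radial glia were lower in Dnmt1 KO 1 only. When *Vim* and *Fabp7*, which have short mRNAs, were taken out of the radial glia gate, 40 of 81 members were higher and 0 lower, against 23.8% and 28.4% of all genes, with a median of 0.47. This gate held 77 to 313 nuclei per library in place of 309 to 644. Among nuclei with at least 10000 and fewer than 20000 transcripts, 49 of 80 members were higher and 0 lower, against 31.2% and 30.2% of all genes, and the share in radial glia was 1.79 ± 0.0735 (SD, n = 4) times that in excitatory nuclei. These 2 settings were chosen after seeing the data.

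Inhibitory nuclei had fewer member transcripts than excitatory nuclei, but few members passed the test. In the same kind of fit over 17121 genes, 7 of 81 members were lower and 0 higher, against 19.2% of all genes lower and 13.7% higher, so the share of members called was below that of all genes. The median log2 fold change was -0.26 over the members and -0.03 over all genes, and 43 members had a lower CPM in inhibitory nuclei in 4 of 4 libraries and 1 a higher CPM. *Rps24*, a small-subunit protein mutated in some cases of Diamond-Blackfan anaemia, had 5.35, 6.78, 7.25 and 7.30 CPM in inhibitory nuclei of Dnmt1 KO 1 and 2 and control 1 and 2. It had 12.1, 9.30, 10.4 and 10.9 CPM in excitatory nuclei, without overlap, and its log2 fold change was -0.58 ± 0.13 (edgeR adjusted p = 0.0107). *Rpl12* (-0.70 ± 0.21), *Rpl26* (-0.56 ± 0.17), *Rpl3* (-0.49 ± 0.13), *Rps18* (-0.47 ± 0.11), *Rpl8* (-0.45 ± 0.14) and *Rpl4* (-0.40 ± 0.10) were the others, and all 7 were also called higher in radial glia. In that comparison 39 of 48 large-subunit and 25 of 33 small-subunit members were called higher. Of the 7 lower in inhibitory nuclei, *Rps24* alone stayed past the threshold in every alternative fit. The count of lower members fell to 2 without Dnmt1 KO 2, to 4 without control 1 and to 3 without control 2. No share of all genes is given for these fits, so the fall cannot be set against it.

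Between the neuronal layers, 16 of 81 members were higher in upper-layer than in deep-layer nuclei and 0 lower, against 23.0% of 17463 genes higher and 22.4% lower, so the share of members called higher was near that of all genes. The median log2 fold change was 0.14 for the members and 0.02 for all genes. *Rps24* (0.38 ± 0.06, edgeR adjusted p = 0.00403), *Rps9* (0.35 ± 0.08) and *Rps21* (0.34 ± 0.11) were among those called. Of the 16, 14 were also called higher in radial glia, where 39 of 48 large-subunit and 25 of 33 small-subunit members were. With library totals, 57 of 81 members were higher, against 43.3% of all genes higher and 15.1% lower, and the median of all genes was 0.21. Among nuclei with at least 10000 and fewer than 20000 transcripts, 0 of 81 passed, against 17.3% of all genes higher and 17.7% lower. At an unadjusted p under 0.05, 4 members passed, and the share of all genes at that threshold is not given. Without Dnmt1 KO 1, Dnmt1 KO 2, control 1 and control 2, the counts were 9, 3, 7 and 4. The shares of all genes called in these fits are not given, so the fall cannot be set against them.

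Whether the members differ between genotypes was examined first in all retained nuclei. No member passed, with 0 of 81 at an adjusted p under 0.05 in edgeR's quasi-likelihood test, against 0% of 21516 genes. DESeq2 likewise called 0 members, and 199 genes in all. At an unadjusted p under 0.05, edgeR had 1 member higher in Dnmt1 KO and 1 lower, against 3.83% and 3.67% of all genes. The log2 fold change was below 0 for 63 members and above 0 for 18, against 51.7% of all genes below 0, and the median was -0.14 for the members and -0.01 for all genes.

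In all retained nuclei, this lean towards lower values was not seen when control 2, the only library of batch 2, was left out. Values within classes are given below. Without control 2, which leaves the libraries of batch 1, 39 members lay below 0 and 42 above, with a median of 0.00. Without control 1, 72 lay below 0 and 9 above, with a median of -0.25. For the fits without a control, the shares of all genes below 0 are not given. The ratio of the mean summed share in Dnmt1 KO to that in controls was 0.934 with 4 libraries, 1.00 without control 2 and 0.874 without control 1. Only 1 control and no Dnmt1 KO library belongs to batch 2, which leaves no value within it. What sets control 2 apart from control 1 and what is due to its batch cannot be told apart.

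**Figure D4:**
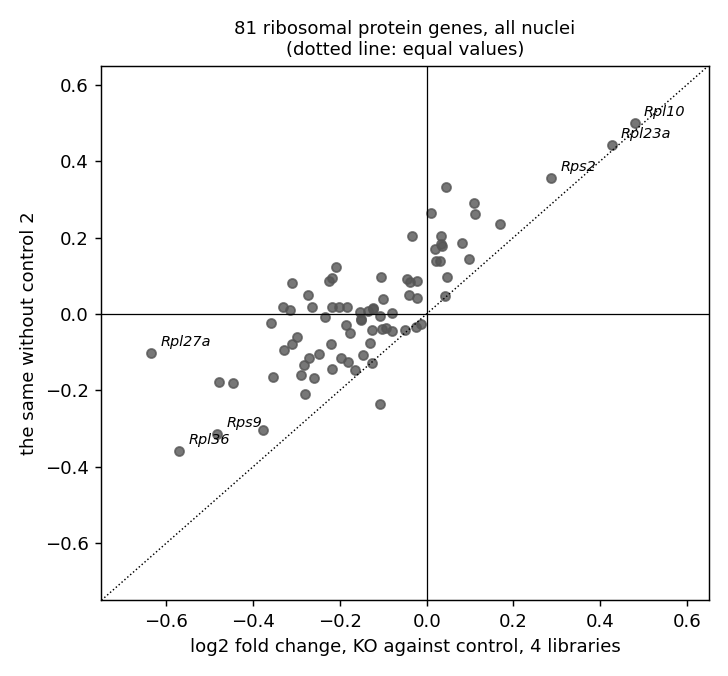
Log2 fold change of Dnmt1 KO against control in all retained nuclei for the 81 tested members, with all 4 libraries (x axis) and without control 2 (y axis). With 4 libraries 63 members lie below 0, without control 2 only 39 do, and *Rpl23a*, *Rpl10* and *Rps2* keep positive values on both axes.

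*Rpl23a*, which sits at the mouth of the exit tunnel, had 7.42 and 7.25 CPM in the Dnmt1 KO libraries, against 5.41 and 5.35 CPM in the controls. The groups do not overlap, and replicates differ little, but the log2 fold change of 0.43 ± 0.13 had an unadjusted edgeR p of 0.0225 and an adjusted p of 0.647. Over the alternatives its value stayed between 0.40 and 0.46. *Rps9*, a protein of the small-subunit body, had 9.92 and 8.32 CPM in Dnmt1 KO against 11.4 and 13.7 CPM in controls (log2 fold change -0.48 ± 0.16, edgeR adjusted p = 0.647). The groups do not overlap, and the values ranged from -0.32 without control 2 to -0.63 without control 1. Neither gene passed the correction over all genes.

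*Rpl10*, which joins the large subunit late in its maturation, had 5.89 and 8.32 CPM in Dnmt1 KO, against 5.05 and 5.05 CPM in controls (0.48 ± 0.22, edgeR adjusted p = 0.649), with Dnmt1 KO 2 as the high library. *Rps2*, a small-subunit protein near the mRNA entry channel, had 8.77 and 10.6 CPM against 7.59 and 8.08 CPM (0.29 ± 0.16). *Rpl27a* had 3.53 and 3.11 CPM against 3.58 and 6.55 CPM (-0.64 ± 0.33), and control 2 alone stood apart: without it the log2 fold change was -0.10. *Rpl36* had at most 1.91 CPM in Dnmt1 KO, against 2.20 and 2.81 CPM in controls (-0.57 ± 0.25, and -0.36 without control 2). *Rps15a* had 16.2 ± 1.85 CPM in Dnmt1 KO and 19.4 ± 0.866 CPM in controls (SD, n = 2 each).

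Values of 24 members were lower in both Dnmt1 KO libraries than in both controls, and values of 5 were higher, against 20.7% and 19.3% of all genes. Some of the other gene groups also had a median below 0 in this comparison. The median log2 fold change was -0.16 for 22 translation factors, -0.14 for 78 mitochondrial ribosomal proteins, -0.13 for 78 respiratory chain genes and -0.78 for 10 mitochondrially encoded genes, and 0.17 for 6 long nuclear RNAs. By summed share, snoRNA host genes had 0.0134% and 0.0111% in Dnmt1 KO 1 and 2, against 0.0102% and 0.0113% in control 1 and 2. Regulators of TOP mRNA translation had 0.0897% and 0.0821% against 0.0840% and 0.0854%. Ribosome biogenesis genes had 0.0670% and 0.0606% against 0.0641% and 0.0671%. In each of these lists the genotypes overlapped. Mitochondrially encoded transcripts made up 0.0140% and 0.0145% of transcripts in the Dnmt1 KO libraries, against 0.0283% and 0.0183% for the controls. Their part in the values of the members was not tested.

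No member passed in any gated class with edgeR or DESeq2. The smallest edgeR adjusted p among the members was 0.721 in radial glia, 0.924 in the upper layer, 0.768 in the deep layer and 0.933 in inhibitory nuclei. At an unadjusted p under 0.05, the edgeR counts were 0 higher and 3 lower of 80 in radial glia (3.29% and 3.47% of all genes), 0 and 0 of 81 in the upper layer (1.98% and 1.82%), 1 and 4 of 81 in the deep layer (2.89% and 3.58%) and 0 and 2 of 78 in inhibitory nuclei (2.29% and 2.58%). Only 3 members could be tested in the IPC gate, with 0 at an unadjusted p under 0.05 (2.29% of all genes higher and 2.33% lower) and 2 below 0 and 1 above (50.3% and 49.7%). In *Sst*+/*Gad2*+ nuclei 6 could be tested, with 0 at an unadjusted p under 0.05 (1.65% higher and 1.43% lower) and 5 below 0 and 1 above (50.3% and 49.7%).

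The log2 fold change lay below 0 for 59 of 80 members in radial glia (51.9% of all genes), 58 of 81 in the upper layer (50.3%, with 49.7% above), 61 of 81 in the deep layer (52.1%) and 54 of 78 in inhibitory nuclei (51.2%). Without control 2, 38 of 80, 36 of 81, 46 of 81 and 50 of 79 did so. The shares of all genes below 0 in these fits are not given, so the counts cannot be set against them.

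In the deep layer, the Dnmt1 KO libraries had summed shares of 0.0457% and 0.0467%, against 0.0479% and 0.0533% for the controls, and in inhibitory nuclei both Dnmt1 KO values (0.0404% and 0.0420%) lay below both controls (0.0469% and 0.0520%). The groups do not overlap in either class, whereas they overlap in radial glia and the upper layer. In the small IPC gate (0.0921% and 0.0766%, against 0.0936% and 0.107%) and in *Sst*+/*Gad2*+ nuclei the groups do not overlap. Within all excitatory nuclei they do not overlap either. After thinning to 1500 transcripts, the groups overlapped in the deep layer (0.0483% and 0.0505% in Dnmt1 KO, 0.0497% and 0.0546% for the controls) and in excitatory nuclei (0.0559% and 0.0554%, against 0.0558% and 0.0656%), but not in inhibitory nuclei (0.0376% and 0.0426%, against 0.0481% and 0.0477%). The thinned groups overlapped in the IPC gate (0.114% and 0.075%, against 0.102% and 0.110%). In *Sst*+/*Gad2*+ nuclei they did not (0.0125% and 0.0490%, against 0.05% and 0.0494%). Counting single members, 36 of 81 in the deep layer and 35 of 78 in inhibitory nuclei were lower in both Dnmt1 KO libraries, against 20.3% and 24.5% of all genes. Higher in both were 5 and 3, against 19.1% and 12.1% of all genes. In radial glia 22 of 80 were lower and 2 higher in both (24.7% and 14.5% of all genes), and in the upper layer 24 of 81 and 5 (19.3% and 14.5%). Without control 2, the median log2 fold change of the members went from -0.16 to -0.03 in the deep layer and from -0.20 to -0.07 in inhibitory nuclei.

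In inhibitory nuclei, *Rpl3* had 5.71 and 5.88 CPM in Dnmt1 KO against 9.46 and 10.7 CPM in controls (log2 fold change -0.73 ± 0.26, edgeR adjusted p = 0.933). *Rps9* had 5.35 and 7.23 CPM against 11.7 and 10.504 CPM (-0.71 ± 0.26, edgeR adjusted p = 0.933). Neither overlaps between the groups, and neither passed. Nuclei with a counted transcript of both *Sst* and *Gad2*, which need not include every nucleus that has expressed *Sst*, had a summed member share of 0.0406% and 0.0526% in the Dnmt1 KO libraries, against 0.0541% and 0.0568% for the controls, on 16, 136, 40 and 27 nuclei. The 95% Wilson interval of Dnmt1 KO 1 was 0.0332% to 0.0496%, from 96 member transcripts.

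The difference between genotypes was also compared between inhibitory and excitatory nuclei, as an interaction term with the library as a block. None of the 81 members passed in edgeR (0 also at an unadjusted p under 0.05, against 1.04% of all genes higher and 0.905% lower, and 0 in DESeq2), nor did any of 17121 genes. The log2 interaction was above 0 for 32 members and below 0 for 49, with a median of -0.06 and of -0.01 for all genes.

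Depth and free RNA were examined as measurements that move with the libraries. Among nuclei of all classes together with at least 5000 transcripts, the share fell with depth in every library. It was 0.0764%, 0.0659%, 0.0662% and 0.0912% in nuclei with at least 5000 and fewer than 10000 transcripts of Dnmt1 KO 1 and 2 and control 1 and 2, and 0.0474%, 0.0478%, 0.0517% and 0.0603% in those with 20000 to 60000. Within excitatory nuclei it also fell in every library. Within radial glia of control 1 it rose from the range starting at 10000 transcripts to that starting at 20000 (0.0930% to 0.103%). In the other radial glia it fell. Within inhibitory nuclei it rose between these ranges in Dnmt1 KO 2 (0.0405% to 0.0473%), control 1 (0.0444% to 0.0525%) and control 2 (0.0495% to 0.0540%). It fell there in Dnmt1 KO 1 (0.0401% to 0.0340%). Over all classes, the shallowest retained nuclei, from 1500 to fewer than 5000 transcripts, had 0.0542% in control 1 and 0.0851% to 0.104% in the others. Control 2 is the deepest library per nucleus and had the highest share in each of the retained ranges. In nuclei with at least 10000 and fewer than 20000 transcripts it had 0.0767% against 0.0549% to 0.0594% in the others. Barcodes of at least 10 and fewer than 100 transcripts, far below the minimum for a nucleus, had 0.0814% in control 2 and 0.0417% to 0.0438% in the libraries of batch 1. The part of free RNA in the values of control 2 was not tested.

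**Figure D5:**
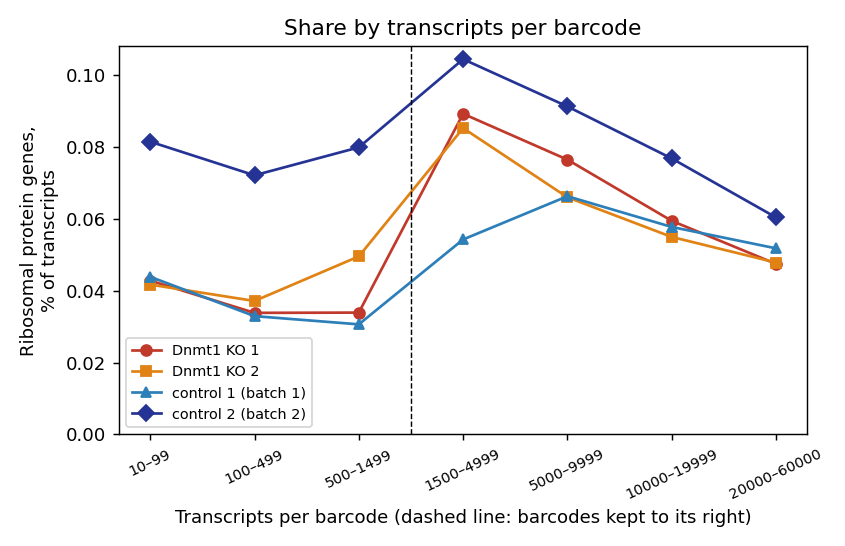
Share of transcripts from the 89 ribosomal protein genes (% of transcripts, y axis) by the number of transcripts per barcode (x axis), with 1 line per library and barcodes right of the dashed line retained. Control 2 lies above the other libraries in each of the ranges shown, which end at 60000 transcripts, with 0.0814% in the range that starts at 10 transcripts and 0.0603% in the range from 20000 to 60000.

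Within libraries, the sublibraries gave 0.0565% to 0.0634% in Dnmt1 KO 1, 0.0536% to 0.0559% in Dnmt1 KO 2 and 0.0549% to 0.0578% in control 1, each over 8 sublibraries. The 2 sublibraries of control 2 gave 0.0682% and 0.0609%, and the lower one lies inside the range of Dnmt1 KO 1. Over the first-round wells, in which nuclei of 1 library were kept apart, the share ran from 0.0498% to 0.0632% in control 1 and from 0.0591% to 0.0731% in control 2. Single wells hold only part of a library, so their range is no yardstick for the difference between the genotypes.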

How the data were processed

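Nuclei from the medial cortex of 2 Dnmt1 KO and 2 control libraries were barcoded by split-pool indexing (Parse Evercode). The labels do not say whether a library is 1 animal, whereas the study names 2 brains from 2 mice per genotype. The authors aligned the reads to mm39 and deposited raw, unfiltered transcript counts for each barcode and gene. The submitters' processing notes name R 4.4.1 and Seurat 5.0.1.9001. The annotation release and the counting of introns and strand were not given in the sources used here.

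Retained were 29656 barcodes holding 1500 to 60000 transcripts, none of which exceeded 10% mitochondrial ones. The study gives this range for reads, which was an alternative. No retained barcode was shared between libraries. Doublets (scrublet; 3.01% to 7.16%) were kept, and leaving them out was an alternative. A nucleus was assigned to the class with the most detected markers, at least 3 of 8 and at least 1 more than the next class. Nuclei tied between upper and deep layer at 3 or more markers, and at least 1 ahead of the other classes, were counted as excitatory only. This left 5.28% to 10.3% of nuclei unassigned. Gating after thinning each nucleus to 1500 transcripts, with at least 2 markers, was an alternative. Because the classes were rebuilt here, they can differ from those of the study.

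Counts were summed per library and class, and CPM are these sums scaled to the total of the library and class. They were tested with edgeR 4.0.16 (R 4.3.3, quasi-likelihood test, TMM, filterByExpr, group alone), and class differences with the library as a block, with Benjamini-Hochberg adjustment over all tested genes at 0.05. DESeq2 1.42.0 was an alternative. The scripts were tested on simulated data. The p-values between genotypes measure only the spread between libraries, and those between classes only how the class difference varies between libraries. The summed share has no test. Counts per class mix how many nuclei a class has with how they were gated. The members, gene lists and gates were chosen with earlier results of these data known. Genes described singly are the 10 with the highest mean CPM, the 5 smallest p and 3 lowest and highest fold changes between genotypes, the 4 largest class differences, the stalk genes, *Rpsa* and the paralogues. Further genes, such as *Rpl26*, *Rpl8* or *Rps21*, were named after their values were seen. Positions come from GENCODE vM39 on GRCm39. RefSeq protein sequences were not used here.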

Additional observations from a re-analysis of the deposited data

How the results depend on the processing

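Between genotypes, edgeR and every alternative left 0 members past the threshold in all retained nuclei, in each gated class and in the interaction. In all retained nuclei, the ratio of summed shares (0.934, with a propagated SD of 0.106) stayed between 0.850 and 1.00, and it exceeded 1 only without control replicate 2. In radial glia against excitatory nuclei, the count of 64 higher members became 40 with a gate without *Vim* and *Fabp7* and 52 to 56 when 1 library was left out. In inhibitory against excitatory nuclei, the 7 lower members became 11 with library totals, where 20.2% of all genes were lower and 12.3% higher. The count was also 11 with no low-count filter and with the gate without *Vim* and *Fabp7*. It was 3 in nuclei with at least 10000 and fewer than 20000 transcripts, and 2 to 6 when 1 library was left out. In upper-layer against deep-layer nuclei, the 16 higher members became 57 with library totals, 8 with DESeq2, 10 with no low-count filter, 8 with the thinned gate (which called 1 lower), 0 in that range of depth, and 3 to 9 when 1 library was left out. Shares of all genes are given above for only some of these settings, so the other counts cannot be set against them. Fewer nuclei enter the depth range. The cause of the changes in these counts, those in the depth range included, was not tested. With the replicate number as a block, 0 members passed in any population. The labels number the replicates without saying what they share, and the deviations of equally numbered libraries correlated at -0.06. The low depth, about 8 member transcripts per nucleus in batch 1, limits what can be seen in small classes, and the single library of batch 2 limits every comparison of genotypes.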
